A study of Mus musculus with 10 samples.

Results

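Glutaminase and the main enzymes that use or make glutamate were followed as 9 genes of the 22165 in a count table of mouse peritoneal macrophages. They were taken by gene symbol: Gls2 (a glutaminase), Glul (glutamine synthetase), Asns (asparagine synthetase), Glud1 (glutamate dehydrogenase) and the transaminases Got1, Got2, Gpt, Gpt2 and Psat1. Poly(A) RNA was sequenced from cells of C57BL/6 mice, sorted with antibodies to CD64, ICAM-2 and CD115 (macrophage and monocyte surface proteins), in a study of glutamine use during the clearance of dying cells. The KO IL-4 group (3 libraries) came from mice with a floxed allele and LysM-Cre that had been given IL-4 bound to an anti-IL-4 antibody by intraperitoneal injection, and the WT IL-4 group (3 libraries) from floxed mice without Cre given the same complex. The KO basal group (2 libraries) came from floxed LysM-Cre mice given saline, and the WT basal group (2 libraries) from floxed mice without Cre given saline. Cells of all 4 groups were washed out with 5 ml of PBS at 36 hours, and by this account all 4 groups carry the floxed allele, so a KO to WT comparison also sets Cre carriers against mice that lack Cre. The labels conflict on the controls: the treatment protocol and the design text give floxed mice without Cre, which is followed here, whereas the growth protocol names them WT only. LysM-Cre is driven by the Lyz2 locus, which is active in myeloid cells and not in macrophages alone. The age of the mice is not given in the sources used here. Nothing in the labels ties a replicate to an animal of its own, so the p-values reflect the spread between these libraries alone, which may be technical.

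Glutaminases take the amide nitrogen off glutamine and leave glutamate, and glutamine synthetase runs the opposite step with ammonia and ATP. Glutamate then passes its carbon into the tricarboxylic acid cycle as alpha-ketoglutarate, either through glutamate dehydrogenase, which frees ammonia, or through transaminases, which hand the amino group to oxaloacetate, pyruvate or phosphohydroxypyruvate and so make aspartate, alanine or the precursor of serine. Tissue macrophages are known to use glutamine in their response to IL-4, which drives alternative activation.

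The 250 bases before the transcription start are shown for 3 members: Psat1, the 1 member that passed a test below, Glul, the member with the highest level, and Asns, which was near 0. They are RefSeq sequences of build GRCm38.p6, read 5′ to 3′ on the strand of the gene, and capitals mark the letters of a motif searched on both strands: CCAAT, the box that NF-Y binds, and TGATGNAA, the core of the element bound by ATF4 with C/EBP proteins in the amino-acid response. The Psat1 window lies on the minus strand at chr19:15925060-15925309, Glul on the plus strand at chr1:153899679-153899928 and that of Asns on the minus strand at chr6:7693210-7693459. The starts are those of RefSeq, and the gene positions given further on are those of GENCODE. The GENCODE start lies 15 bases downstream of the RefSeq start for Glul and 45 bases upstream of it for Asns. GENCODE also starts a Psat1 transcript at the RefSeq base, but extends the gene to a start 22278 bases farther upstream, so the Psat1 window lies inside the gene as GENCODE draws it.
Psat1: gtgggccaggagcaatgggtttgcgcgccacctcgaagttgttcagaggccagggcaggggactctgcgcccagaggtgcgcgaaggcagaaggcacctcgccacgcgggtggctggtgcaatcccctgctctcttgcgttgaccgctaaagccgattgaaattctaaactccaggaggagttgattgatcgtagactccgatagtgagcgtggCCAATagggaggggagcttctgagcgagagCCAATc
Glul: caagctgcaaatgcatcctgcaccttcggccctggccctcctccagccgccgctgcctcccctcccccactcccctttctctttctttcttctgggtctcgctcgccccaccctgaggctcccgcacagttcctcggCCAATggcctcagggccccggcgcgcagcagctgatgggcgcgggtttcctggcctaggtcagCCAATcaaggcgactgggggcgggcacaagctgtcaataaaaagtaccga
Asns: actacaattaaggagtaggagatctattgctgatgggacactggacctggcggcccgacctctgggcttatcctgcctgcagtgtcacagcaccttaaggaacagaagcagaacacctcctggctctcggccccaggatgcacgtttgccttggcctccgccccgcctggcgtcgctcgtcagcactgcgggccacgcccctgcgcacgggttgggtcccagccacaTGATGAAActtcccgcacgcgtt

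The Psat1 window held 2 CCAAT matches, at 2 and 32 bases before the start, and the Glul window held 2, at 46 and 109 bases before the start. The Asns window held 1 TGATGNAA match, 16 bases before the RefSeq start, and no CCAAT. By the GENCODE start, which lies 45 bases farther upstream, that match is inside the gene. No match overlapped another. Of 32851 mouse promoter windows of the same length, 33.8% held CCAAT and 3.45% held TGATGNAA, so the first motif is common. Windows were found for 7 of the 9 members, 8 windows in all because Psat1 has a second start, whose window held neither motif. The window of Got1 held 5 CCAAT matches and 1 TGATGNAA match, and those of Glud1, Got2 and Gpt2 held neither. Gls2 and Gpt were not matched. A match of letters describes the sequence only.

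The libraries held 8762403 to 15024073 counted reads. Lyz2, the locus that carries Cre, had 2846 to 4096 CPM (counts scaled to the size of the library) in the KO IL-4 libraries and 5912 to 7046 CPM in the WT IL-4 libraries. It had 2664 and 9675 CPM in the KO basal libraries and 23600 and 21903 CPM in the WT basal libraries, so the 2 KO basal libraries differed from each other by more than the WT libraries did. All 7 markers of macrophages and of the sort were found in every group, with summed levels of 3903 to 4443 CPM in KO IL-4, 4332 to 4520 CPM in WT IL-4, 4357 to 4581 CPM in KO basal and 5472 to 6469 CPM in WT basal libraries. Itgam, which was not a target of the sort antibodies, gave the largest part of these sums in every group. Of the sorted proteins, Fcgr1 (CD64) averaged 10.1 CPM in KO IL-4, 10.4 in WT IL-4, 24.7 in KO basal and 35.8 in WT basal libraries. In the same order Icam2 averaged 387, 411, 619 and 994 CPM, and Csf1r (CD115) 311, 301, 293 and 269 CPM. Markers of other cells were present too, and some were highest in the KO basal group. The B cell markers summed to 313 to 436 CPM in KO IL-4, 337 to 386 CPM in WT IL-4, 1022 and 1302 CPM in KO basal and 115 and 208 CPM in WT basal libraries. The mast cell and basophil markers summed to 1.52 to 2.92 CPM in KO IL-4, 2.68 to 3.99 CPM in WT IL-4, 157 and 259 CPM in KO basal and 26.8 and 28.4 CPM in WT basal libraries. In bulk RNA, fewer cells of a type and less RNA per cell cannot be told apart.

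**Figure D1:**
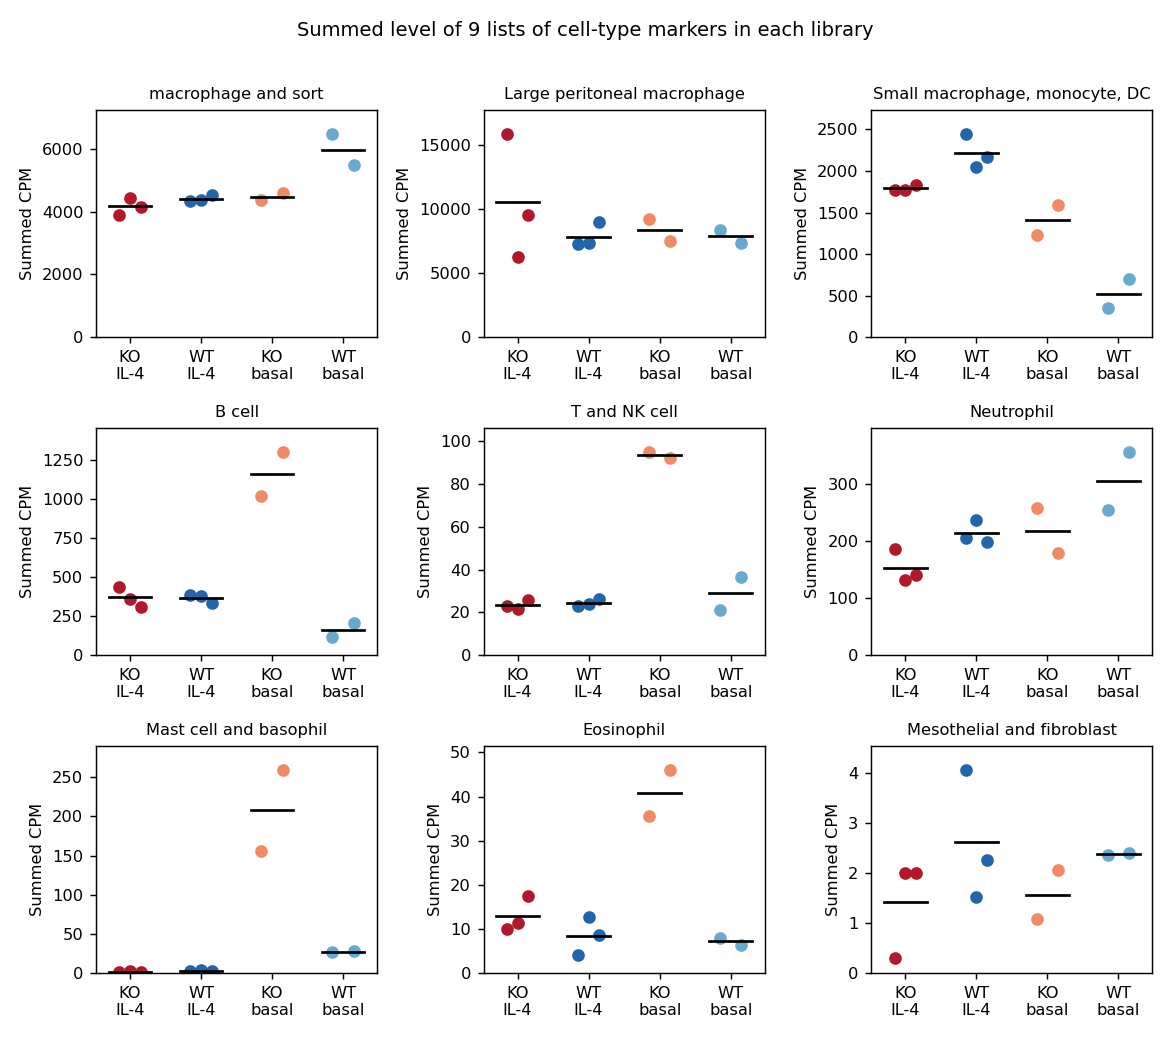
Summed CPM (vertical axes) of 9 lists of cell-type markers in each of the 10 libraries, by group (horizontal axes); points are libraries and black bars are group means. The KO basal libraries hold the highest sums of the B cell, T and NK cell, mast cell and basophil, and eosinophil lists. Cd2 gave most of the T and NK cell sum there, with a mean of 83.4 CPM. Il5ra gave most of the eosinophil sum there, with a mean of 34.9 CPM, while Epx and Prg2 were at 0 in every group.

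Of the 9 genes, 1 passed the test in 1 comparison: Psat1 was higher in KO IL-4 than in KO basal libraries. Of the 9, 7 passed the filter on low counts and were tested with edgeR's quasi-likelihood test among 11614 genes, with a Benjamini-Hochberg adjusted p under 0.05 as the threshold. Asns and Gls2 had too few reads. A log2 fold change is written with ± its standard error (SE), and a mean with ± its SD between libraries. Lyz2, the check of the genotype labels, differed between KO and WT by -1.88 ± 0.42 under basal conditions (adjusted p = 0.0249). In fits without 1 library this value ran from -3.10 to -1.23. After IL-4 the difference was -0.89 ± 0.34 and did not pass (adjusted p = 0.249). Lyz2 also fell after IL-4 in WT mice, by 1.81 ± 0.37 (adjusted p = 0.0123), so it differed by treatment as well as genotype.

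Between genotypes after IL-4, 0 of the 7 tested members passed, where 0.827% of all genes tested did. Psat1 and Glul had an unadjusted p under 0.05, as had 14.4% of all genes, and DESeq2 called 0 members. Psat1 alone had no overlap between the 3 KO and the 3 WT libraries, against 20.3% of all genes. Between genotypes under basal conditions, 0 of 7 passed against 4.14% of all genes, and DESeq2 called 0. An unadjusted p under 0.05 was found for 0 of the 7, against 17.7% of all genes. The libraries did not overlap for 4 of the 7 (Glul and Gpt2 higher, Gpt and Psat1 lower in KO), against 48.2% of all genes, so this count is near the background.

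Between IL-4 and basal libraries in WT mice, 0 of 7 passed against 6.06% of all genes. Glul had an unadjusted p under 0.05, as had 21.3% of all genes, and DESeq2 called 0. Glul was also the 1 member whose libraries did not overlap, against 40.2% of all genes. Between IL-4 and basal libraries in KO mice, 1 of 7 passed, Psat1, against 7.6% of all genes in either direction and 4.09% that were higher. The libraries did not overlap for 3 of the 7 (Got1 and Psat1 higher, Gpt2 lower after IL-4), against 39.6% of all genes. The interaction (the effect of IL-4 in KO minus its effect in WT mice) was called for 0 of 7, against 2.81% of all genes. Glul and Psat1 had an unadjusted p under 0.05 for it, as had 15.3% of all genes, and DESeq2 called 0. The comparisons share libraries and are not independent of each other.

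**Figure D2:**
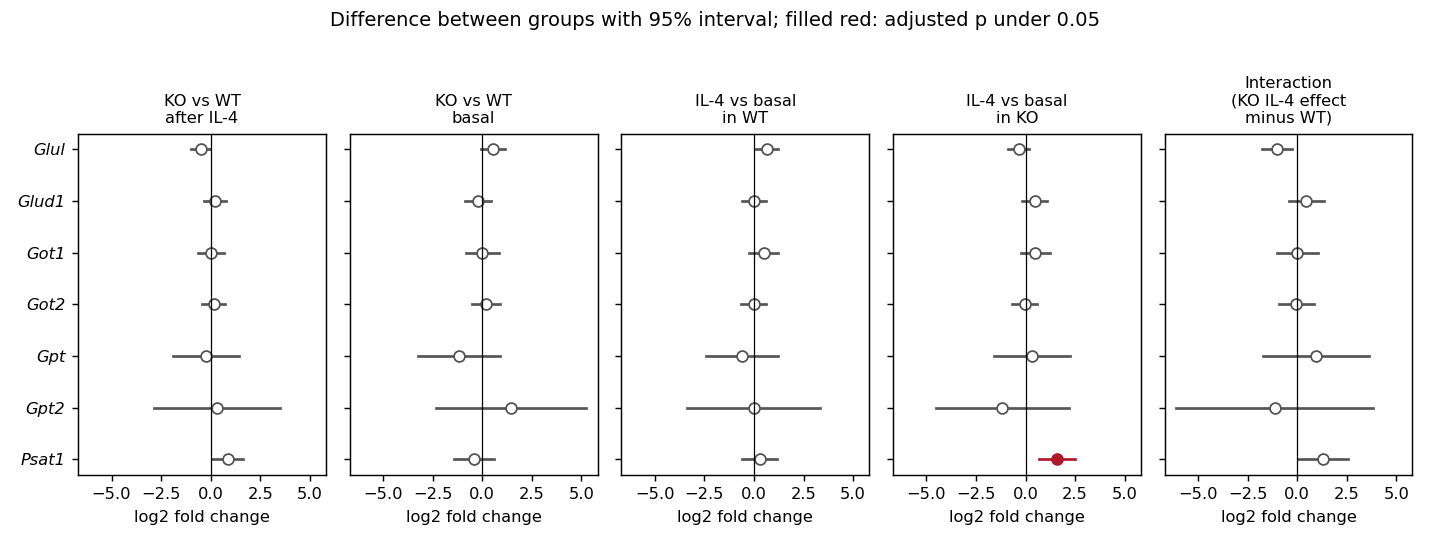
Log2 fold change (horizontal axes) of the 7 tested members (vertical axis) in the 5 comparisons, with the 95% interval as a bar; filled red marks an adjusted p under 0.05. Psat1 in IL-4 against basal KO libraries is the single filled point, at 1.58, and the intervals of Gpt and Gpt2 are the widest.

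The median log2 fold change of the 7 tested members was 0.16 between genotypes after IL-4, where the median of all genes was 0.02. It was 0.00 against -0.02 between genotypes under basal conditions, 0.00 against 0.00 for IL-4 in WT mice, 0.34 against 0.00 for IL-4 in KO mice and 0.01 against 0.01 for the interaction.

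Glutamine synthetase, which makes glutamine from glutamate, is encoded by Glul (ENSMUSG00000026473, chromosome 1, 153899944 to 153909723, plus strand). Glul had 781, 934 and 577 CPM in the KO IL-4 libraries, against 879, 869 and 1494 CPM in the WT IL-4 libraries. It had 904 and 1045 CPM in the KO basal libraries, against 677 and 685 CPM in the WT basal libraries. After IL-4 the genotypes overlapped and 1 WT library stood well above the other 5, while under basal conditions both KO libraries lay above both WT libraries. The log2 fold change between KO and WT was -0.50 ± 0.23 after IL-4 (adjusted p = 0.337) and 0.52 ± 0.28 under basal conditions (adjusted p = 0.366), so neither passed.

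Against basal libraries of the same genotype, Glul after IL-4 had a log2 fold change of -0.35 ± 0.26 in KO mice (adjusted p = 0.446) and of 0.67 ± 0.26 in WT mice (adjusted p = 0.151). The difference of these, -1.02 ± 0.37 with a 95% interval of -1.80 to -0.24, had an adjusted p of 0.178 and did not pass. The IL-4 values leaned on 1 library: without WT IL-4 replicate 3, the one at 1494 CPM, Glul differed between KO and WT after IL-4 by -0.20 (adjusted p = 0.793), and its IL-4 effect in WT mice was 0.36 (adjusted p = 0.494). Without KO IL-4 replicate 3, the lowest, the difference between KO and WT after IL-4 was -0.33 (adjusted p = 0.635). Glul averaged 764 ± 179 CPM in KO IL-4 and 1081 ± 358 CPM in WT IL-4 libraries (SD, n = 3 each), and 975 ± 99.7 CPM in KO basal and 681 ± 5.40 CPM in WT basal libraries (SD, n = 2 each). From high to low the groups thus ran WT IL-4, KO basal, KO IL-4 and WT basal, and libraries of neighbouring groups in that order overlapped. The KO basal libraries, where Glul lay above WT, are also those with the high B cell and mast cell sums; the part of those cells in the Glul level was not tested. Teddm2 overlaps Glul on the opposite strand, but had 0 to 14 counts a library where Glul had 7171 to 14515.

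Asns, which moves the amide group of glutamine to aspartate, and Gls2, the glutaminase best known from liver, were close to the limit of detection. Asns (chromosome 6, 7675169 to 7693254, minus strand) had 4, 0 and 0 counts in the KO IL-4 libraries, against 5, 4 and 7 in the WT IL-4 libraries. It had 10 and 0 counts in the KO basal libraries, against 6 and 0 in the WT basal libraries. Libraries of 1 group thus differed as much as the groups did. Gls2 (chromosome 10, 128194457 to 128210004, plus strand) had 1 count in 1 of the 3 KO IL-4 libraries, 1 count in 1 of the 2 KO basal libraries and 0 counts in all 5 WT libraries. A count of 0 allows up to 3 counts, which is 0.200 to 0.324 CPM depending on the library, for counting error only, so a difference in Gls2 was not detectable at this depth. Spryd4, which overlaps the end of Gls2 on the opposite strand, had 18 to 78 counts, and the strand setting of the counting is not given in the sources used here.

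Glutamate dehydrogenase, which turns glutamate into alpha-ketoglutarate and ammonia in mitochondria, is encoded by Glud1 (ENSMUSG00000021794, chromosome 14, 34310727 to 34345265, plus strand). Glud1 had 296, 154 and 168 CPM in the KO IL-4 libraries, against 156, 158 and 210 CPM in the WT IL-4 libraries. It had 130 and 169 CPM in the KO basal libraries, against 143 and 206 CPM in the WT basal libraries. Libraries of the groups overlapped in all 4 comparisons of groups, and 1 KO IL-4 library stood above the rest. The log2 fold change was 0.24 ± 0.26 for KO against WT after IL-4 (95% interval -0.31 to 0.79, adjusted p = 0.722) and -0.22 ± 0.32 under basal conditions (-0.90 to 0.45, adjusted p = 0.783). That same KO IL-4 library held the highest sum of large peritoneal macrophage markers, 15851 CPM, where the other 9 libraries held 6237 to 9510 CPM. Prg4 made up most of the mean sum of that list in the KO IL-4 group, 7526 of 10533 CPM. Of the 7 markers tested between genotypes after IL-4, 1 was higher and 1 lower in KO. Without that KO IL-4 library, the Glud1 difference after IL-4 was -0.13.

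The aspartate transaminases swap amino groups between glutamate and oxaloacetate, Got1 in the cytosol and Got2 in mitochondria, and together serve the malate-aspartate shuttle. Got2 (chromosome 8, 95864134 to 95888547, minus strand) had 31.3, 35.9 and 22.0 CPM in the KO IL-4 libraries, against 24.8, 24.9 and 30.4 CPM in the WT IL-4 libraries. It had 29.5 and 31.8 CPM in the KO basal libraries, against 35.3 and 18.3 CPM in the WT basal libraries. The groups overlapped in all 4 comparisons, and the widest spread lay between the 2 WT basal libraries. The Got2 log2 fold change between KO and WT was 0.16 ± 0.27 after IL-4 (95% interval -0.42 to 0.73, adjusted p = 0.843) and 0.19 ± 0.33 under basal conditions (-0.51 to 0.90, adjusted p = 0.827). Glud1 and Got2 each have a processed pseudogene, Glud-ps and Got2-ps1, that could share reads with them and was not analysed here.

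Got1 (chromosome 19, 43499752 to 43524605, minus strand) had 6.80, 9.06 and 8.49 CPM in the KO IL-4 libraries, against 9.14, 6.78 and 8.24 CPM in the WT IL-4 libraries. It had 4.97 and 6.53 CPM in the KO basal libraries, against 6.80 and 4.71 CPM in the WT basal libraries. Both genotypes thus held nearly the same values, with a log2 fold change of 0.02 ± 0.31 after IL-4 (95% interval -0.64 to 0.67, adjusted p = 0.989) and 0.00 ± 0.39 under basal conditions (-0.82 to 0.82, adjusted p = 0.999). After IL-4 its log2 fold change against basal was 0.50 ± 0.35 in KO mice (adjusted p = 0.433) and 0.48 ± 0.35 in WT mice (adjusted p = 0.471). Neither passed, and the 95% intervals reach 1.25 and 1.23 on the log2 scale.

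The alanine transaminases join glutamate and pyruvate to alpha-ketoglutarate and alanine, Gpt in the cytosol and Gpt2 in mitochondria. Gpt (chromosome 15, 76695716 to 76699686, plus strand) had 9, 30 and 14 counts in the KO IL-4 libraries, against 41, 19 and 3 in the WT IL-4 libraries. It had 14 and 9 counts in the KO basal libraries, against 24 and 34 in the WT basal libraries. Gpt2 (chromosome 8, 85492576 to 85527560, plus strand) had 10, 12 and 0 counts in the KO IL-4 libraries, against 0, 0 and 16 in the WT IL-4 libraries, and 11 and 19 counts in the KO basal libraries, against 1 and 11 in the WT basal libraries. At these counts single libraries decide the values. For KO against WT under basal conditions, the log2 fold change was -1.16 ± 0.98 for Gpt (95% interval -3.23 to 0.91, adjusted p = 0.597) and 1.45 ± 1.78 for Gpt2 (-2.35 to 5.24, adjusted p = 0.745). The 2 genes of the same reaction had opposite signs there, but neither passed, and the difference between them was not tested.

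Phosphoserine aminotransferase, which uses glutamate to make phosphoserine on the way to serine and releases alpha-ketoglutarate, is encoded by Psat1 (ENSMUSG00000024640, chromosome 19, 15904678 to 15947337, minus strand). Psat1 had 9.75, 6.53 and 8.41 CPM in the KO IL-4 libraries, against 5.92, 4.19 and 3.40 CPM in the WT IL-4 libraries. It had 3.35 and 2.15 CPM in the KO basal libraries, against 3.49 and 3.85 CPM in the WT basal libraries. The KO IL-4 libraries were the 3 highest of all 10, and the KO basal libraries the 2 lowest. In counts these were 96, 85 and 105 in the KO IL-4 libraries, against 31 and 24 in the KO basal libraries.

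Psat1 rose after IL-4 in KO mice by 1.58 ± 0.44 on the log2 scale against basal KO libraries (95% interval 0.65 to 2.51, adjusted p = 0.0381), which is 2.995-fold, and it stood at rank 726 of the 11614 genes by p. In WT mice its log2 fold change after IL-4 was 0.29 ± 0.42 (-0.59 to 1.18, adjusted p = 0.750). The effect of IL-4 was not shown to differ between the genotypes: the interaction was 1.29 ± 0.59 (0.03 to 2.55, adjusted p = 0.314). Between KO and WT, Psat1 had a log2 fold change of 0.86 ± 0.36 after IL-4 (0.09 to 1.64, adjusted p = 0.294) and of -0.42 ± 0.47 under basal conditions (-1.42 to 0.57, adjusted p = 0.712). Psat1 averaged 8.23 ± 1.62 CPM in KO IL-4 and 4.50 ± 1.29 CPM in WT IL-4 libraries (SD, n = 3 each), and 2.75 ± 0.85 CPM in KO basal and 3.67 ± 0.25 CPM in WT basal libraries (SD, n = 2 each). From high to low the groups ran KO IL-4, WT IL-4, WT basal and KO basal; libraries of WT IL-4 and WT basal overlapped, while the other neighbours in that order did not.

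The Psat1 call lay close to the threshold. With library totals as the scaling the adjusted p was 0.0517, and with the 2 KO groups fitted alone it was 0.0585. It was also lost in 5 of 10 fits that left out 1 library: without KO basal replicate 1 (log2 1.93, adjusted p = 0.0998) or 2 (1.29, 0.280), without KO IL-4 replicate 1 (1.43, 0.0954) or 3 (1.57, 0.0827), and without WT IL-4 replicate 2 (1.58, 0.0507). DESeq2 gave 0.0130 for it. Between the same 2 groups all 7 B cell markers tested fell and 6 of 7 mast cell and basophil markers fell. The B cell sums were 313 to 436 CPM in KO IL-4 and 1022 and 1302 CPM in KO basal libraries, with no defining marker at 0 in either group. The mast cell and basophil sums were 1.52 to 2.92 CPM in KO IL-4 and 157 and 259 CPM in KO basal libraries, and Fcer1a, Mcpt4 and Ms4a2 were at 0 in all KO IL-4 libraries. The T and NK cell sums were 21.6 to 25.9 CPM in KO IL-4 and 92.1 and 94.7 CPM in KO basal libraries. Of the 6 tested markers, 1 fell. Most of this sum was Cd2, with means of 20.9 CPM in KO IL-4 and 83.4 CPM in KO basal libraries. Every other marker of that list averaged 4.40 CPM or less in both groups. The part of these cells in the Psat1 difference was not tested.

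**Figure D3:**
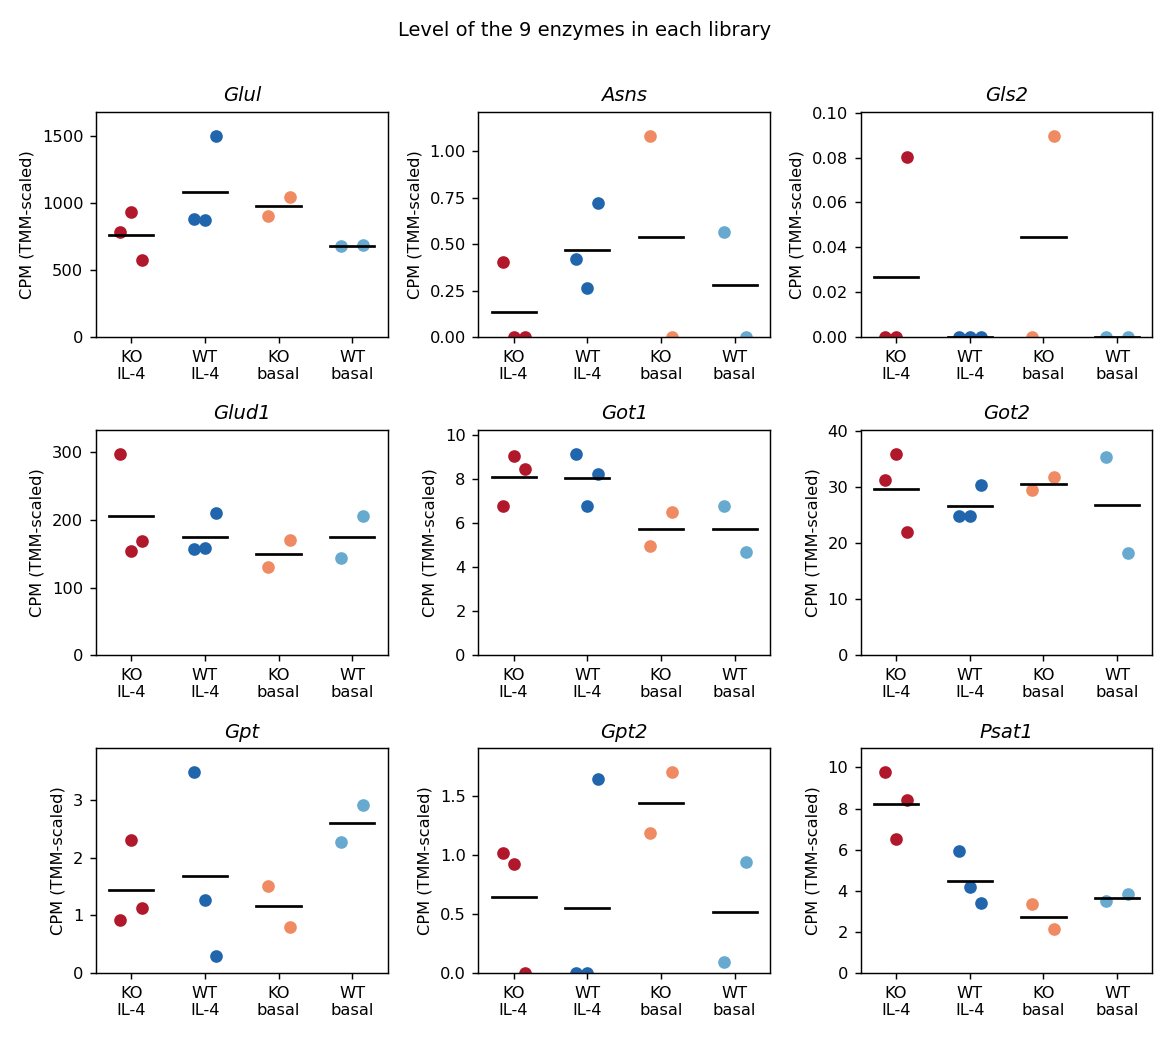
TMM-scaled CPM (vertical axes, each with its own range from 0) of the 9 genes in the 10 libraries, by group (horizontal axes); points are libraries and black bars are group means. The 3 KO IL-4 libraries hold the highest Psat1 values, 6.53 to 9.75 CPM, while most points of Asns and Gls2 are at or near 0.

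Between genes, levels can be set side by side only per length, here as CPM per kilobase of exon. On that scale the mean level over all 10 libraries was 266 for Glul, 42.5 for Glud1, 5.89 for Got2, 2.82 for Got1, 1.20 for Psat1, 0.574 for Gpt, 0.133 for Gpt2, 0.127 for Asns and 0.00488 for Gls2. Glul, Glud1, Got2 and Got1 stood in that order in all 10 libraries, and their ranges over the libraries did not overlap. From Got1 downwards the ranges of neighbours overlapped, although Got1 lay above Psat1 in 10 of 10 libraries, Psat1 above Gpt in 9 and Gpt above Gpt2 in 8. Gpt2 lay above Asns in 5 of 10 libraries, so these could not be put in order. The order by mean was the same when the longest transcript was used for the length.

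Glul made up 74.0% to 88.1% of the summed level per kilobase of the 9 genes and Glud1 9.78% to 22.2%, which left 2.15% to 4.73% for the other 7. The Glul share was 74.0% to 84.9% in KO IL-4, 84.5% to 88.1% in WT IL-4, 86.2% and 87.0% in KO basal and 78.4% and 81.7% in WT basal libraries. The mitochondrial Got2 stood above the cytosolic Got1 in every library, by a ratio of 1.37 to 3.12. That ratio was 1.37 to 2.42 in KO IL-4, 1.43 to 1.94 in WT IL-4, 2.56 and 3.12 in KO basal and 2.05 and 2.73 in WT basal libraries, where the KO groups did not overlap and nor did the WT groups. The size of the ratio depends on the length used: with the longest transcript in place of merged exons it was 2.11 to 4.83 over the 10 libraries, with 2.11 to 3.74 in KO IL-4, 2.21 to 3.0 in WT IL-4, 3.96 and 4.83 in KO basal and 3.17 and 4.23 in WT basal libraries. These ratios are descriptions without a test. Of all single genes, 39.6% did not overlap between IL-4 and basal libraries in KO mice, and 40.2% in WT mice. The spread over the 10 libraries, as a coefficient of variation of CPM, was 20.2% for Got2, 21.9% for Got1, 27.0% for Glud1 and 28.9% for Glul, against 48.4% for Psat1 and 59.9% for Gpt. A wide spread is also what low counts give.

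**Figure D4:**
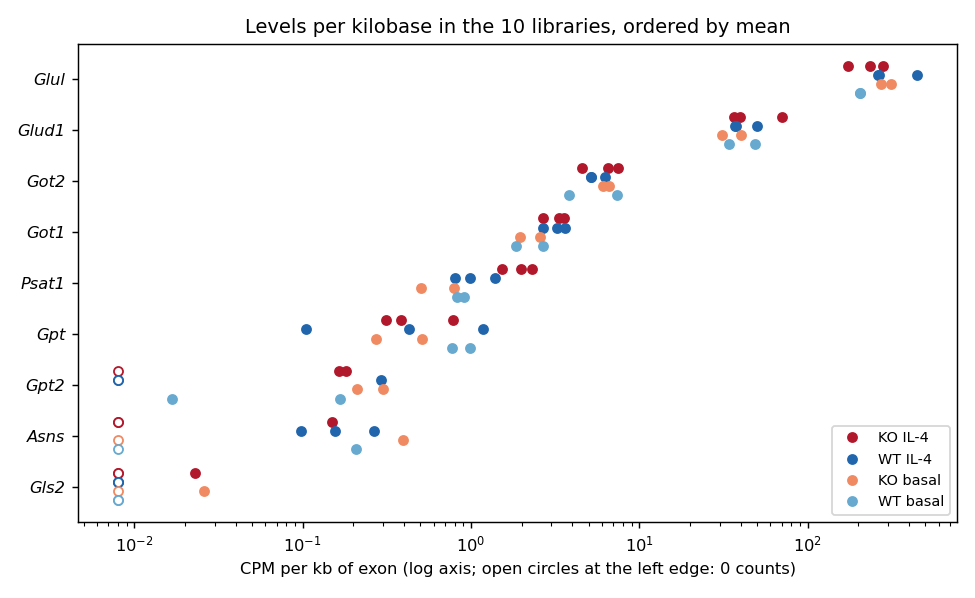
CPM per kilobase of exon (horizontal log axis) of the 9 genes (vertical axis, ordered by mean) in the 10 libraries, coloured by group; open circles at the left edge are libraries with 0 counts. Glul, Glud1, Got2 and Got1 form separate bands, with means of 266, 42.5, 5.89 and 2.82.

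Genes of 10 related lists, 122 genes of which 88 were tested, were counted beside the members, which some of the lists include. Between genotypes after IL-4, 0 of 88 passed, against 0.827% of all genes, and 17 had an unadjusted p under 0.05, where 14.4% of all genes did. Under basal conditions 3 were higher and 1 lower in KO, for IL-4 in WT mice 3 rose and 2 fell, for IL-4 in KO mice 4 rose and 2 fell, and for the interaction 1 was lower. These are 4.55%, 5.68%, 6.82% and 1.14% of the listed genes, against 4.14%, 6.06%, 7.6% and 2.81% of all genes tested, so the lists stood near the background. The counts depended on the tool and the setting. DESeq2 called 0 of 87 listed genes between genotypes after IL-4 (against 3.46% of all genes) and 8 of 91 under basal conditions (8.79%, against 6.87%). It called 8 of 88 for IL-4 in WT mice (9.09%, against 9.79%) and 11 of 91 for IL-4 in KO mice (12.1%, against 10.7%). For the interaction it called 3 of 91 (3.30%, against 4.85%). With no filter on low counts edgeR tested 106 listed genes. It called 1 between genotypes after IL-4 (0.943%, against 3.42% of all genes) and 9 under basal conditions (8.49%, against 7.01%). For IL-4 it called 6 in WT mice (5.66%, against 8.19%) and 10 in KO mice (9.43%, against 9.64%), and for the interaction 6 (5.66%, against 5.55%). The genes named next are those that passed edgeR's test with the filter.

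Markers of other cells moved in the comparisons that hold these calls. Under basal conditions 7 of 7 B cell markers (median log2 fold change 3.14), 4 of 7 mast cell and basophil markers and 4 of 8 markers of dendritic cells, monocytes and small peritoneal macrophages were higher in KO. For IL-4 in WT mice 4 of 8 of the small macrophage, monocyte and dendritic markers (median 1.65), 3 of 7 B cell markers and 3 of 6 neutrophil markers rose, while 3 of 7 mast cell and basophil markers and 1 neutrophil marker fell. For the interaction 7 of 7 B cell (median -3.26), 3 of 6 neutrophil, 3 of 8 small macrophage, monocyte and dendritic, and 2 of 7 mast cell and basophil markers were lower. The small macrophage, monocyte and dendritic markers summed to 1768 to 1829 CPM in KO IL-4, 2048 to 2445 CPM in WT IL-4, 1235 and 1596 CPM in KO basal and 347 and 698 CPM in WT basal libraries, with no marker at 0 in any group. The part of these cells in the calls below was not tested.

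Proline synthesis and breakdown (6 tested) and glutathione synthesis (8 tested) held no passing gene in any comparison. The smallest p in them belonged to Aldh18a1, the first enzyme of proline synthesis, for IL-4 against basal in WT mice (log2 1.14 ± 0.37, adjusted p = 0.0809), and to Gsr, glutathione reductase, in the same comparison (0.62 ± 0.23, adjusted p = 0.125).

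Among glutamine synthesis and breakdown (4 tested of 10 genes), 0 passed in any comparison, and the nearest was Asnsd1, a relative of asparagine synthetase, for IL-4 in WT mice (log2 0.80 ± 0.25, adjusted p = 0.0717). Among glutamate dehydrogenase and transaminases (10 tested of 16), Psat1 and Bcat2 rose after IL-4 in KO mice and 0 passed elsewhere. Bcat2, the mitochondrial branched-chain transaminase, which also passes amino groups to alpha-ketoglutarate, had 41.1, 42.8 and 41.3 CPM in the KO IL-4 libraries, against 23.9 and 21.8 CPM in the KO basal libraries. Its log2 fold change was 0.87 ± 0.24 (adjusted p = 0.0387), and the call was lost in 6 of 10 fits without 1 library (any KO library, or WT IL-4 replicate 3), where the adjusted p reached 0.246. Of serine, glycine and one-carbon enzymes (9 tested of 11), Psat1 was the 1 that passed, for IL-4 in KO mice. In that comparison 4 of the 9 had a positive log2 fold change, and the list median was -0.37. Phgdh and Psph, of the same list, had log2 fold changes of -1.49 ± 0.52 (adjusted p = 0.0985) and -1.31 ± 0.57 (adjusted p = 0.182), so neither passed. Oat, ornithine aminotransferase, which makes glutamate semialdehyde, had the smallest p of the transaminases between genotypes after IL-4 (log2 -0.53 ± 0.21, adjusted p = 0.268).

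Among carriers of glutamine and glutamate (10 tested of 19), Slc1a5 and Slc38a9 were higher in KO than in WT under basal conditions. Slc1a5, the plasma membrane carrier that brings in glutamine, had 23.9 and 35.1 CPM in the KO basal libraries, against 11.8 and 13.5 CPM in the WT basal libraries. It had 12.6, 11.1 and 9.53 CPM in the KO IL-4 libraries, against 19.4, 14.6 and 16.8 CPM in the WT IL-4 libraries. The KO libraries thus lay below the WT libraries after IL-4 and above them under basal conditions, with no overlap in either, as for 20.3% and 48.2% of all genes. The basal difference passed and the difference after IL-4 did not (log2 -0.61 ± 0.25, adjusted p = 0.283). The Slc1a5 log2 fold change was 1.22 ± 0.31 for KO against WT under basal conditions (adjusted p = 0.0368) and -1.41 ± 0.27 for IL-4 against basal in KO mice (adjusted p = 0.00501). In WT mice the IL-4 effect was 0.42 ± 0.28 (adjusted p = 0.433) and did not pass, and the interaction was -1.83 ± 0.40 (adjusted p = 0.0194). The KO basal libraries again carried the high B cell and mast cell sums. The basal call was lost in 6 of 10 fits without 1 library (any basal library, or WT IL-4 replicate 1 or 3; adjusted p up to 0.291), the call in KO mice without KO basal replicate 2 (0.113), and the interaction without KO basal replicate 2, either WT basal library or WT IL-4 replicate 1 (up to 0.123).

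Slc38a9, the lysosomal amino acid sensor and carrier, had 36.9 and 37.9 CPM in the KO basal libraries, against 16.9 and 14.6 CPM in the WT basal libraries. Its log2 fold change was 1.25 ± 0.29 (adjusted p = 0.0257), in the comparison where all 7 B cell markers were higher in KO, and was lost when any 1 of the 4 basal libraries was left out (adjusted p up to 0.168). Slc7a11, which exports glutamate in exchange for cystine, rose after IL-4 in both genotypes. It had 77 counts over the KO IL-4 libraries, against 1 over the KO basal libraries (adjusted p = 0.0238), and 100 counts over the WT IL-4 libraries, against 4 over the WT basal libraries (adjusted p = 0.0441). The first of these calls was lost without either KO basal library (adjusted p up to 0.147), and the second when WT basal replicate 1, any 1 WT IL-4 library, or KO IL-4 replicate 2 or 3 was left out (up to 0.186).

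In the malate-aspartate shuttle and its partners (11 tested of 11), the mitochondrial aspartate-glutamate carrier Slc25a13 rose after IL-4 in KO mice and the malic enzyme Me2 rose after IL-4 in WT mice, where markers of small macrophages, monocytes and dendritic cells rose too. Slc25a13 had 54.2, 45.1 and 44.7 CPM in the KO IL-4 libraries, against 27.1 and 20.0 CPM in the KO basal libraries (log2 1.03 ± 0.30, adjusted p = 0.0470), and the call was lost in 7 of 10 fits without 1 library (any KO library, WT basal replicate 2 or WT IL-4 replicate 1; up to 0.327). Me2 had 49.1, 48.8 and 50.3 CPM in the WT IL-4 libraries, against 26.5 and 20.5 CPM in the WT basal libraries (log2 1.07 ± 0.25, adjusted p = 0.0198), and the call was lost when WT basal replicate 2 or any 1 WT IL-4 library was left out (up to 0.175). Got1 and Got2, the transaminases of the same shuttle, passed in no comparison. Gfpt1, which uses glutamine for hexosamine synthesis, was the 1 amidotransferase of 10 tested that passed, with 245, 292 and 283 CPM in the WT IL-4 libraries, against 135 and 149 CPM in the WT basal libraries (log2 0.94 ± 0.25, adjusted p = 0.0359). This call was lost when any 1 of these 5 libraries was left out (up to 0.159).

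Of the enzymes that make or use alpha-ketoglutarate (11 tested of 12), D2hgdh, which oxidises D-2-hydroxyglutarate to it, was higher in KO under basal conditions, as were the B cell markers. D2hgdh had 15.03 and 10.02 CPM in the KO basal libraries, against 3.97 and 4.02 CPM in the WT basal libraries (log2 1.64 ± 0.42, adjusted p = 0.0377), and the call was lost when any 1 basal library or WT IL-4 replicate 3 was left out (up to 0.254). In the list of ATF4 and amino-acid response genes (22 tested of 30), Ddit3, a transcription factor of the stress response, was lower in KO than in WT under basal conditions, with 17.5 and 12.9 CPM in the KO basal libraries, against 36.2 and 29.7 CPM in the WT basal libraries (log2 -1.12 ± 0.30, adjusted p = 0.0463). Nupr1, a stress-induced chromatin protein, fell after IL-4 in both genotypes, by 1.30 ± 0.26 on the log2 scale in KO mice (adjusted p = 0.00576) and by 1.83 ± 0.26 in WT mice (adjusted p = 0.000793). Ddit3 also fell after IL-4 in WT mice, by 0.996 ± 0.26 (adjusted p = 0.0357). Among these 4 calls, Nupr1 in WT mice was kept in all 10 fits without 1 library. Nupr1 in KO mice was lost without KO basal replicate 1 (0.0696), Ddit3 after IL-4 when any 1 WT library was left out (up to 0.196) and Ddit3 under basal conditions when any 1 basal or WT IL-4 library was left out (up to 0.301). Psat1 and Slc7a11 belong to this list too and rose after IL-4 in KO mice, while Nupr1 of the same list fell.

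**Figure D5:**
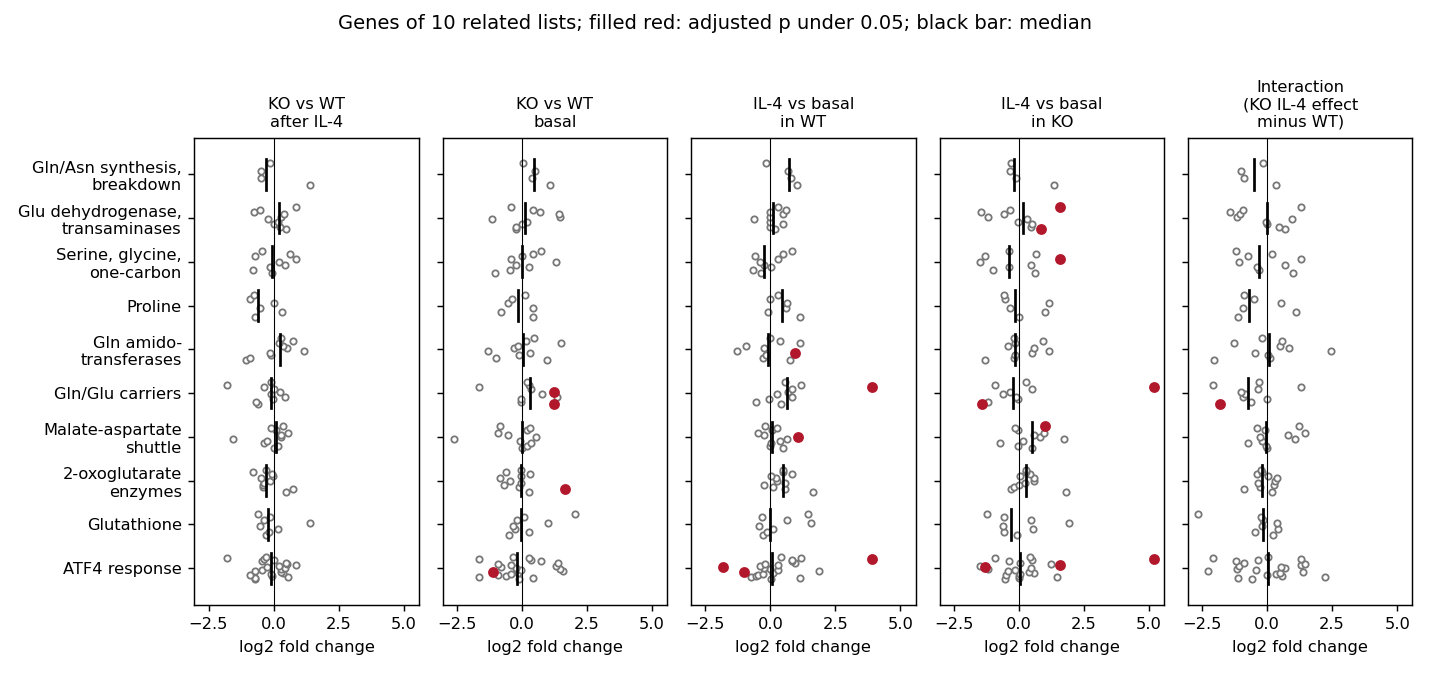
Log2 fold change (horizontal axes) of the tested genes of 10 related lists (vertical axis) in the 5 comparisons; circles are genes, filled red where the adjusted p was under 0.05, and black bars are list medians. No point is filled between genotypes after IL-4. Slc7a11, the farthest point after IL-4, had 1 and 4 counts in the KO basal and WT basal groups, so its distance from 0 is poorly determined.

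For the 3 members with a mean of at least 10 CPM, the 2 genes most like them were taken by Pearson's r of log2(CPM + 1) over the 10 libraries, among 7496 genes. Glul was closest to H6pd, which makes NADPH from glucose 6-phosphate in the endoplasmic reticulum (r = 0.919), and Atp6ap2, a partner of the proton pump of lysosomes (r = 0.859). Glud1 was closest to Apobec1, an RNA-editing cytidine deaminase (r = 0.937), and the ribosomal pseudogene Rpl23a-ps3 (r = 0.904). Got2 was closest to Dck, deoxycytidine kinase (r = 0.978), and Tmem19 (r = 0.885). H6pd, like Glul, had its highest means in WT IL-4 and KO basal libraries, with 125 CPM in KO IL-4, 166 CPM in WT IL-4, 165 CPM in KO basal and 108 CPM in WT basal libraries. These are the highest of many correlations over few libraries, which share depth and cell makeup, and they are given as a description.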

How the data were processed

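Poly(A) RNA of sorted peritoneal macrophages was sequenced in 10 libraries, 3 in each IL-4 group and 2 in each basal group, and grouped by title. The authors deposited raw read counts per Ensembl gene. Per the submitters' processing notes, STAR, HTSeq and mm10 were used; versions, annotation and strand setting are not given in the sources used here. Symbols, lengths and coordinates came from GENCODE M21 (GRCm38). The table holds 22165 identifiers; 420 lack a symbol and 7409 are at 0 throughout.

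TMM scaling and filterByExpr (minimum count 10, total 15) of edgeR 4.0.16 (R 4.3.3) kept 11614 genes for testing. A robust quasi-likelihood model with 4 group means (6 residual degrees of freedom, common biological coefficient of variation 28.4%) gave 5 two-sided contrasts, adjusted by Benjamini-Hochberg over all genes, with a threshold of 0.05. The code was tested on simulated counts. CPM values are counts scaled by TMM library sizes, per kilobase of merged exons where genes are compared. Alternatives were RLE factors, library totals, DESeq2 1.42.0, no filter, only the groups compared, a replicate block, each library left out, and the longest transcript for length. A lone library left in a group was taken to vary as the rest do.

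Named genes were the members, Lyz2 as a check of the genotype labels, the passing genes of each list, at most 3 by smallest p (or 1 as a value, of which examples are given) and the genes most like 3 members. The members and lists were chosen with earlier results of these data known. A gene that the same rule named is not reported here and was left out of the list counts, so Lyz2 was the one check of genotype. Ighm and Trac, on the B cell and T cell lists, were not analysed here.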

Additional observations from a re-analysis of the deposited data

Results flagged for a closer look

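The IL-4 effect on Slc1a5, the plasma membrane glutamine carrier, differed between the genotypes by a test of the difference itself. The log2 fold change of IL-4 against basal was -1.41 ± 0.27 in KO mice, and the IL-4 effect in KO minus that in WT mice was -1.83 ± 0.40 (edgeR's quasi-likelihood test, Benjamini-Hochberg adjusted p = 0.0194). In WT mice the IL-4 effect was 0.42 ± 0.28 and did not pass (adjusted p = 0.433). All 3 KO IL-4 libraries lay below both KO basal libraries, as for 39.6% of all genes that did not overlap in either direction, and all 3 WT IL-4 libraries lay above both WT basal libraries, where 40.2% of all genes did not overlap. Markers of other cells moved in the same test: 7 of 7 B cell (median log2 -3.26), 3 of 6 neutrophil, 3 of 8 small macrophage, monocyte and dendritic, and 2 of 7 mast cell and basophil markers had a lower IL-4 effect in KO than in WT mice. The B cell sums were 313 to 436 CPM in KO IL-4, 337 to 386 CPM in WT IL-4, 1022 and 1302 CPM in KO basal and 115 and 208 CPM in WT basal libraries, and the part of these cells was not tested. The call was lost in 4 of 10 fits without 1 library, those without KO basal replicate 2, either WT basal library or WT IL-4 replicate 1, where the adjusted p reached 0.123.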

How the results depend on the processing

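Numbers shared between groups gave no sign of paired libraries: of 13 same-numbered pairs, 0 had correlated deviations over 0.1 (-0.110 to 0.0620). In a group of 2 libraries the deviations mirror each other, so these pairs are not independent. The check therefore cannot show that the libraries are unpaired. The count of called members was unchanged at 0 in 4 comparisons under all alternatives run. For IL-4 in KO mice it was 1 by RLE factors, DESeq2 and no filter, 0 by library totals, the replicate block and the 2 groups alone, and 0 to 1 without 1 library; under the replicate block the Psat1 log2 fold change was 1.67 (adjusted p = 0.0601). Over the 7 members and 5 comparisons, 185 of 202 values from other settings and 308 of 350 from fits without 1 library kept their sign and side of the threshold.

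The values that turned sign had not passed. After IL-4 between genotypes these were Got1 by library totals (-0.0099) and no filter (-0.0085) and Gpt under the replicate block (0.17). Under basal conditions it was Got1 with no filter (-0.043). For IL-4 in WT mice they were Glud1 with no filter (-0.017) and under the block (-0.0089), Got2 by RLE factors (0.00028), library totals (0.046), the block (0.068) and DESeq2 (0.00056), and Gpt2 by library totals (0.075) and DESeq2 (0.058). For the interaction they were Got1 by library totals (-0.15) and Gpt2 under the block (0.25). Without 1 library, values crossed 0 between genotypes after IL-4 for Glud1 (-0.13 to 0.41), Got1 (-0.10 to 0.12), Got2 (-0.0013 to 0.33), Gpt (-0.72 to 0.83) and Gpt2 (-0.33 to 5.92). Under basal conditions they did so for Glud1 (-0.45 to 0.061), Got1 (-0.24 to 0.30) and Got2 (-0.21 to 0.75). For IL-4 in WT mice they did so for Glud1 (-0.23 to 0.29), Got2 (-0.41 to 0.55) and Gpt2 (-5.64 to 2.34), and in KO mice for Got2 (-0.20 to 0.13), Gpt (-0.17 to 0.85) and Lyz2 (-1.47 to 0.39). For the interaction they did so for Got1 (-0.29 to 0.25), Got2 (-0.60 to 0.36) and Gpt2 (-3.50 to 4.46). The cause was not tested.

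Calls over all genes were 96 after IL-4 between genotypes (385 by DESeq2, 505 with no filter, 21 to 129 without 1 library), 481 under basal conditions (841, 1034, 208 to 550), 704 for IL-4 in WT (1144, 1209, 302 to 764; 474 under the block), 883 for IL-4 in KO (1306, 1423, 327 to 931; 554 under the block) and 326 for the interaction (594, 819, 182 to 397). Library totals moved the median log2 fold change of all genes to -0.10 for IL-4 in KO, 0.13 under basal conditions and -0.17 for the interaction, and the higher calls for IL-4 in KO to 386 of 918, against 475 of 883. The fit with no filter differs from the main fit in more than the genes kept. For IL-4 in KO its Psat1 value was 1.59 ± 0.52, against 1.58 ± 0.44 in the main fit. Yet the unadjusted p of edgeR's quasi-likelihood test was smaller, 0.00215 against 0.00238. The fit with no filter thus took more degrees of freedom, and its calls are not set on equal terms with the main ones. Low counts limit Gpt, Gpt2, Asns and Gls2.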
